A study of Mus musculus with 2 samples.

Results

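The genes that write, copy, oxidise and read DNA methylation were followed in inflammation-experienced regulatory T cells of the mouse. They were 9 genes chosen by symbol, Dnmt1, Uhrf1, Uhrf2, Dnmt3a, Dnmt3b, Tet1, Tet2, Tet3 and Mbd2. They were 9 of the 55536 GENCODE genes listed in the large gene tables and held 83 of the 141862 annotated transcripts. The cells were primary cells, male, taken at an age of 7 weeks, and derived per the labels from regulatory T cells that had been activated. The labels give no genotype, strain or treatment agent. Polyadenylated RNA of 1 biological replicate was made into 2 technical libraries, called library 1 and library 2 here, and there was no second condition. The labels do not say whether both libraries were made from a single RNA preparation. Differences between them therefore compare 2 libraries, and their p-values measure neither animals nor an effect of inflammation.

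Methylation of cytosine in CpG dinucleotides is set by the de novo enzymes Dnmt3a and Dnmt3b. After replication it is copied to the new strand by Dnmt1, which Uhrf1 directs to half-methylated CpG sites. Tet1, Tet2 and Tet3 oxidise 5-methylcytosine, which starts its removal, and Mbd2 binds methylated CpG and recruits the NuRD repressor complex. In regulatory T cells, stable Foxp3 expression is known to depend on demethylation of an intronic enhancer of that gene, and Tet2, Tet3, Dnmt1, Uhrf1 and Mbd2 have been linked to that state.

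The large tables held 26593267 expected counts in library 1 and 22036331 in library 2. The 9 genes took 22059 of these counts (0.0830%) in library 1 and 19569 (0.0888%) in library 2. T cell markers summed to a TPM (a level corrected for transcript length and scaled to a fixed sum per library) of 10614 and 10313, and regulatory T cell markers to 1265 and 1101. The most abundant were the receptor genes Trbc2 (3669.65 and 3472.79) and Trac (2957.15 and 2902.68), and Izumo1r (480.87 and 341.76) and Tnfrsf18 (344.14 and 369.22). Foxp3, the transcription factor that defines these cells, stood at 87.27 and 87.39. The libraries differed in markers of other cells. Erythroid markers summed to 8515 in library 1 and 95.4 in library 2. The globin genes Hbb-bs and Hba-a2 led these, with 2970.7 and 2992.68 in library 1 and 44.56 and 29.33 in library 2. Macrophage markers differed in both directions by the test described below. Of the 8, 6 were called higher in library 2 (46.4% of all genes tested) and Lyz2 was called higher in library 1 (23.9%). Lyz2 stood at 23.78 and 3.72 and C1qa at 3.47 and 15.4. C1qc, named here after its values were seen, had 0 counts in library 1 and 223 in library 2. B cell markers summed to 851 and 762, macrophage markers to 33.3 and 71.6, NK cell markers to 192 and 313, CD8 T cell markers to 27.0 and 13.5, and dendritic cell markers to 7.56 and 5.90. The most abundant B cell genes were Ighm (447.22 and 436.4) and Igkc (247.04 and 210.6). Nkg7 (153.31 and 233.02) and Klrk1 (32.14 and 72.2) led the NK cell list and were called higher in library 2. Cd8b1 (24.25 and 13.14) and Cd8a (2.73 and 0.37) were called higher in library 1. The dendritic cell genes Zbtb46 (2.8 and 1.74) and Xcr1 (2.41 and 2.24) were the highest of their list. In such bulk RNA, fewer cells of a type and less RNA per cell cannot be told apart.

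All 9 genes were detected, meaning that they reached a TPM of 1 in each library, as were 13718 genes in all. With each library taken alone, 15359 genes reached that level in library 1 and 19186 in library 2, although library 2 had fewer counts. The order of the 9 genes by mean TPM was Mbd2, Uhrf2, Dnmt1, Tet3, Dnmt3a, Tet2, Uhrf1, Dnmt3b and Tet1. Of the 8 neighbouring pairs in that order, the 2 libraries overlapped for Dnmt3a with Tet2 and for Uhrf1 with Dnmt3b. Each of the other pairs was in the same order in both libraries, with no overlap. The 3 Dnmt genes summed to 99.8 in library 1 and 107 in library 2, which was 1.53 and 1.48 times the summed TPM of the 3 Tet genes.

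**Figure D1:**
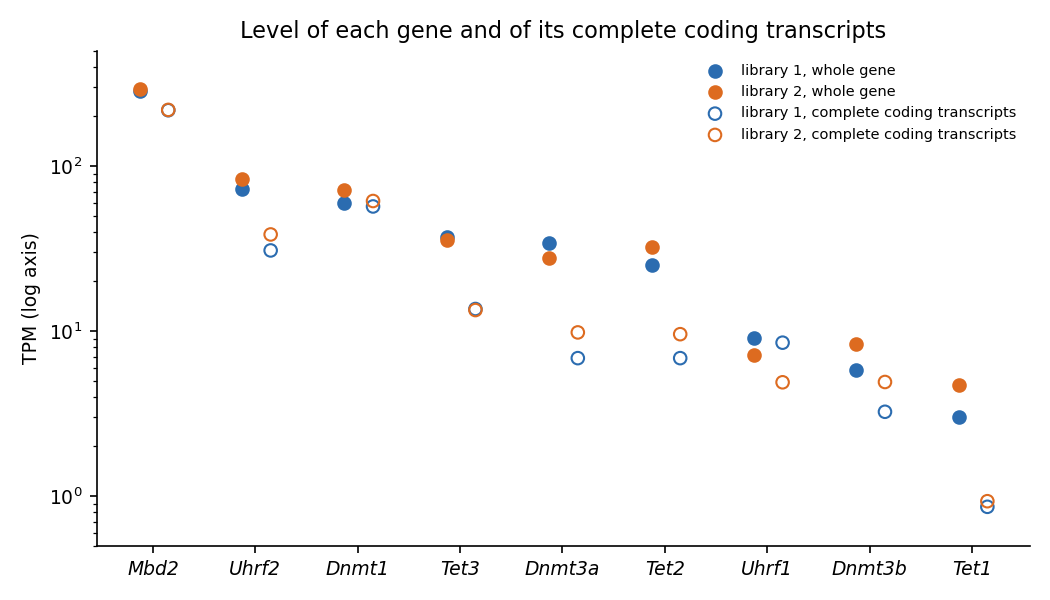
TPM (log axis) of each gene in library 1 (blue) and library 2 (orange). Filled points are whole genes and open points are the sum over transcripts with a complete annotated coding sequence, which for Tet1 lie at 0.860 and 0.930 against 3.03 and 4.71 for the whole gene.

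Expected counts of the libraries were then compared for each gene by an exact binomial test (2-sided), adjusted by Benjamini-Hochberg over all 24253 genes with at least 10 counts. At an adjusted p under 0.05 the test called 70.3% of those genes, 23.9% as higher in library 1 and 46.4% as higher in library 2. Over the 12609 genes with at least 100 counts, which all 9 genes had, these shares were 34.5% and 37.4%. The shares of 23.9% and 46.4% beside the lists below include genes with fewer counts than most listed genes. Among the 9 genes the test called 7. Of these, 6 (Dnmt1, Uhrf2, Dnmt3a, Dnmt3b, Tet1 and Tet2) were higher in library 2 and 1 (Uhrf1) was higher in library 1. A call is thus common in these data and says little by itself, so the size of each difference is given below. The median log2 ratio (library 2 over library 1) was 0.21 for the 9 genes, 0.23 for all genes tested and 0.01 for detected genes. The median absolute log2 ratio was 0.28 for the 9 genes and 0.29 for detected genes. Scaling by TMM moved the median of all genes tested from 0.23 to 0.12 and that of the 9 genes to 0.10. With TMM 3 of the 9 genes were called higher in library 2 (Uhrf2, Dnmt3b and Tet2; 40.5% of all genes tested) and 3 higher in library 1 (Uhrf1, Tet3 and Mbd2; 30.1%). With DESeq2 size factors the counts were again 3 (39.0% of all genes tested) and 3 (32.1%). In the small table they were 4 (32.2%) and 2 (22.1%). At 1.5-fold or more, 0 of the 9 genes were higher in library 2 (34.9% of all genes tested) and 1, Uhrf1, was higher in library 1 (11.7%).

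**Figure D2:**
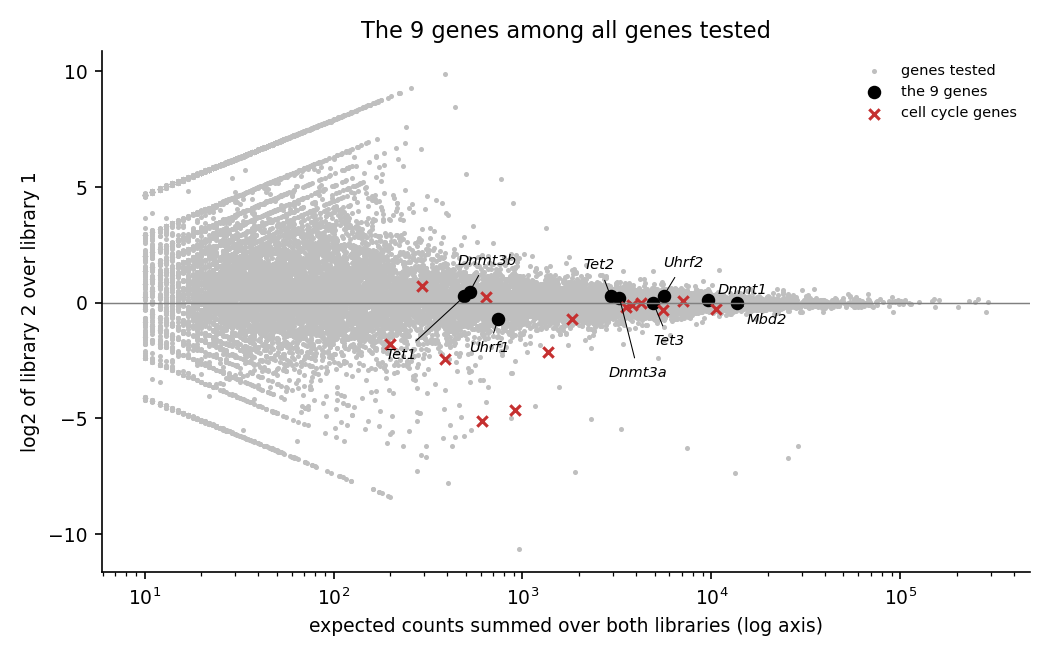
Log2 ratio of library 2 over library 1 against the expected counts summed over both libraries (log axis) for the 24253 genes tested (grey), the 9 genes (black, named) and 14 cell cycle genes (red crosses). Uhrf1 lies at -0.70, and the other 8 genes lie between -0.02 and 0.48.

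Among the maintenance genes, Dnmt1, the methyltransferase that follows the replication fork, was one of the more abundant. The gene lies on the minus strand at chr9:20907209-20959888 (mm10). Its TPM was 59.58 in library 1 and 71.18 in library 2, with a mean of 65.4 ± 8.20 (SD, n = 2 technical libraries), at percentile 77.3 of detected genes. Its expected counts were 5028 and 4529. Relative to the library totals the log2 ratio was 0.12 (95% interval 0.06 to 0.18, adjusted p = 1.05e-04, exact binomial test). With TMM the ratio was 0.01 (adjusted p = 0.751) and with DESeq2 size factors it was -0.02, so its direction rested on the scaling.

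The methyl transfer by Dnmt1 and the Dnmt3 enzymes uses a cysteine that follows a proline in the catalytic pocket. The coding stretches around that pair are shown because they are the catalytic centre shared by the family. They were taken from the GENCODE M21 transcripts, 5′ to 3′ on the coding strand, with the proline and cysteine codons in capitals. The Dnmt1 stretch lies at chr9:20911786-20911845 on the minus strand, in exon 32 of 39 of Dnmt1-201, with the cysteine at codon 1229 of 1620. The Dnmt3a stretch lies at chr12:3902396-3902455 on the plus strand, in exon 18 of 23 of Dnmt3a-201, with the cysteine at codon 706 of 908. The Dnmt3b stretch lies at chr2:153677186-153677245 on the plus strand, in exon 17 of 22 of Dnmt3b-209, with the cysteine at codon 637 of 839.
Dnmt1: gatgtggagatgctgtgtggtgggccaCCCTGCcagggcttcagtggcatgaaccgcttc
Dnmt3a: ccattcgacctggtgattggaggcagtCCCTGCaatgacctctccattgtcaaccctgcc
Dnmt3b: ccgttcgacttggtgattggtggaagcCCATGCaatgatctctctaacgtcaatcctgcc
Over these 60 bases the Dnmt3a and Dnmt3b stretches were identical at 49 positions (81.7%). The Dnmt1 stretch was identical to that of Dnmt3a at 29 (48.3%) and to that of Dnmt3b at 29. Transcripts were then searched for the capitals with a few bases on each side, not for the whole stretch. Those that carry this core took 95.6% of Dnmt1 TPM in library 1 and 86.2% in library 2. They took 33.7% and 40.7% of Dnmt3a TPM, and 55.8% and 59.1% of Dnmt3b TPM. As shares of expected counts, which weigh long transcripts more, these were 99.2% and 97.0% for Dnmt1, 72.6% and 79.8% for Dnmt3a, and 89.2% and 89.9% for Dnmt3b. Carrying the core does not mean that a transcript encodes an active enzyme. For Dnmt3a the transcripts with the core include Dnmt3a-215, a target of nonsense-mediated decay at 13.8% and 5.14% of the gene. Complete coding transcripts of Dnmt3a alone took 19.9% and 35.5%. For Dnmt3b the transcripts with the core include the forms without 63 codons described below.

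Dnmt1 RNA was assigned to forms that differ at the 5′ end. The longest form, Dnmt1-201, had a TPM of 32.1 and 36.2 in libraries 1 and 2. The 3 forms whose coding sequence begins later had a summed TPM of 24.8 and 25.2, almost all of it in Dnmt1-202, at 23.62 and 24.56. Dnmt1-202 encodes 119 codons fewer at the amino end than Dnmt1-201 and starts 6909 bases farther upstream. A form that lacks the amino-terminal stretch is known as the oocyte form, Dnmt1o. The bulk of both transcripts is shared, and the assignment rests on the reads that can tell them apart. Of their 50-base windows, 182 in Dnmt1-201 and 154 in Dnmt1-202 occur in no other Dnmt1 transcript. The authors' 95% intervals for TPM were 23.5 to 35.0 for Dnmt1-201 and 15.1 to 27.0 for Dnmt1-202 in library 1, and 26.0 to 37.1 and 16.8 to 28.2 in library 2. The intervals of both forms overlapped between the libraries. These intervals surround the authors' posterior mean, so a TPM can lie outside them, as it did at gene level for 3 of the 9 genes in each library. The retained-intron transcript Dnmt1-204 had 1.31 and 6.77, and its intervals did not overlap (0.252 to 2.72 and 4.35 to 8.25).

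The sequences before the starts of these 2 forms are shown because they differ in CpG content, the substrate of the enzyme itself. They come from RefSeq (GRCm38.p6), cover the 250 bases before the start on the minus strand, at chr9:20952980-20953229 for Dnmt1-201 and chr9:20959889-20960138 for Dnmt1-202, and overlap no annotated Dnmt1 exon. Capitals mark each CG.
Dnmt1-201: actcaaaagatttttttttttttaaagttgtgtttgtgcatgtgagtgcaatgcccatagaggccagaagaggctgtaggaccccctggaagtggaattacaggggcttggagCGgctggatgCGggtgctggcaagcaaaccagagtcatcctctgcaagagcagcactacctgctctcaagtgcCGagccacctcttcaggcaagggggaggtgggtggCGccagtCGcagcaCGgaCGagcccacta
Dnmt1-202: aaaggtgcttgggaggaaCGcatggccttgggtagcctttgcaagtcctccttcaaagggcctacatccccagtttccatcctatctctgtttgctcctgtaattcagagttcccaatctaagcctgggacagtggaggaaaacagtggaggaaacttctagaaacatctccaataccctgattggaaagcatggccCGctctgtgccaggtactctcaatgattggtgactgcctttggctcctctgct
The window before Dnmt1-201 held 7 CG and that before Dnmt1-202 held 2. Of all 32851 RefSeq windows of this length, 46.3% held at least 7 and 81.2% held at least 2.

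Uhrf1, the reader of half-methylated CpG that brings Dnmt1 to replicated DNA, had the largest count ratio of the 9 genes, though not the largest TPM ratio. It lies on the plus strand at chr17:56303321-56323486. Its expected counts were 492 in library 1 and 250 in library 2, and its TPM was 9.08 and 7.2 (mean 8.14 ± 1.33, percentile 31.6). Relative to the totals it was 1.63-fold higher in library 1, a log2 ratio of -0.70 (95% interval -0.93 to -0.48, adjusted p = 6.75e-10, exact binomial test). The ratio was -0.81 with TMM, -0.85 with DESeq2 size factors and -0.76 in the small gene table, a separate count of the same libraries. Of all genes with at least 100 counts, 21.4% had a larger absolute log2 ratio. On the TPM scale, with 1 added, the log2 ratio was -0.30, and Tet1 (0.50), Dnmt3b (0.45), Tet2 (0.35) and Dnmt3a (-0.31) had larger absolute ratios there. The authors' effective length of Uhrf1 was 3261.98 bases in library 1 and 2559.53 in library 2. In library 1 transcripts with a complete coding sequence took 93.7% of Uhrf1 TPM and retained-intron transcripts 6.28%, against 67.9% and 23.8% in library 2.

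Most of the cell cycle genes listed, 10 of 14, were called in the same direction as Uhrf1, higher in library 1 (23.9% of all genes tested). The other genes were Top2a, Mcm4 and E2f1, called higher in library 2 (46.4% of all genes tested), and Mcm7, not called. E2f1 had a log2 ratio of 0.72 and Top2a of 0.25, which was 0.14 with TMM and not called there. Over the 14 genes the log2 ratios had a median of -0.27. With TMM 11 of the 14 were called higher in library 1 (30.1% of all genes tested) and 1 higher in library 2 (40.5%). The mitotic cyclins Ccnb1 and Ccnb2 fell from 887 to 29 and from 600 to 14 expected counts between library 1 and library 2. The chromosomal passenger gene Birc5 had 339 and 52 counts. The replication helicase genes differed less, with log2 ratios of -0.25 for Mcm6 (adjusted p = 2.69e-17), -0.01 for Mcm7 (adjusted p = 0.925) and 0.09 for Mcm4 (adjusted p = 0.0126; -0.02 with TMM). The erythroid markers moved the same way too, with 8 of 8 called higher in library 1 (23.9% of all genes tested). No value here separates Uhrf1 RNA of regulatory T cells from that of other cells. The part of erythroid cells or of cycling cells in the Uhrf1 difference was not tested.

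The windows before both RefSeq starts of Uhrf1 are shown because Uhrf1 had the largest count ratio of the 9 genes, and many cell cycle genes are known to carry E2F sites. They lie on the plus strand, at chr17:56303087-56303320, the first 234 of the 250 bases before the start near Uhrf1-201, and at chr17:56304063-56304312, the 250 bases before Uhrf1-202. Neither stretch overlaps an annotated Uhrf1 exon, and capitals mark each CG.
Uhrf1-201: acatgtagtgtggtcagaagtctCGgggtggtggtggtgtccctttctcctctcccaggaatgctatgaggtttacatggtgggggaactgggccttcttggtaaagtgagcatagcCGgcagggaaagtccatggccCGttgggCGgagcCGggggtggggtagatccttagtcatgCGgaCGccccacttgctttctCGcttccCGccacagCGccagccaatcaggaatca
Uhrf1-202: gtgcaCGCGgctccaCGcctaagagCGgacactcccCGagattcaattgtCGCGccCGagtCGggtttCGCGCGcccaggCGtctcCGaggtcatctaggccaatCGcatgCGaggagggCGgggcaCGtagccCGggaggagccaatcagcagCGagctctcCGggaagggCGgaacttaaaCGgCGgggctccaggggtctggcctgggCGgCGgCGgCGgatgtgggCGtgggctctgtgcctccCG
The first window held 10 CG, a number reached by 37.8% of all windows, and the other held 30, reached by 5.94%. Uhrf1-201 had a TPM of 1.93 and 4.29, and Uhrf1-202 had 0.0 and 0.6. Uhrf1-203, which starts at chr17:56303400 near Uhrf1-201, had 3.21 and 0.0. Uhrf1-204, which starts at chr17:56304348 near Uhrf1-202, had 3.36 and 0.0 and led the gene in library 1. In library 2 Uhrf1-201 led. Each read-length stretch of Uhrf1-203 and Uhrf1-204 also occurs in another Uhrf1 transcript. How reads were divided between the starts was not tested. The E2F-type words TTTGGCGC, TTTCCCGC and TTTCGCGC were searched on both strands of the 250-base windows of all promoters. At least 1 of these words was found in 1.53% of all windows and in 2 of the 13 windows available. Those 13 windows belong to 8 of the 9 genes, with none for Mbd2. Whether the words are more common in them was not tested. The window before Uhrf1-201 held none of them. In the window before Uhrf1-202 TTTCGCGC began at position -185, with -1 the base before the start. In a Dnmt1 window TTTCGCGC was found on the minus strand at -219, before the start of Dnmt1-203. That Dnmt1 window overlaps annotated Dnmt1 exons and lies downstream of the start of Dnmt1-201. A match to these letters is a description of the sequence and not evidence of binding.

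Uhrf2, a paralog of Uhrf1 that also binds modified cytosine, was more abundant than Uhrf1 in both libraries, at 7.98 and 11.6 times its TPM. It lies on the plus strand at chr19:30030513-30093722. Its TPM was 72.45 in library 1 and 83.44 in library 2 (mean 77.9 ± 7.77, percentile 81.1), from 2762 and 2825 expected counts. The log2 ratio was 0.30 (95% interval 0.23 to 0.38, adjusted p = 2.91e-14, exact binomial test), and it was 0.19 with TMM and 0.24 in the small table. Retained-intron transcripts took 57.4% of its TPM in library 1 and 53.9% in library 2. The single complete coding transcript, Uhrf2-201, stood at 30.83 and 38.49. Counted in complete coding transcripts alone, Uhrf2 at a mean of 34.7 ± 5.42 ranked below Dnmt1 at 59.1 ± 3.13.

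Dnmt3a, the main de novo methyltransferase of mature T cells, was the more abundant of the de novo pair. It lies on the plus strand at chr12:3806007-3914443. Its TPM was 34.36 in library 1 and 27.6 in library 2 (mean 31.0 ± 4.78, percentile 58.9), and its expected counts were 1666 and 1595. The counts and the levels pointed in opposite directions. The log2 ratio was 0.21 on counts (95% interval 0.11 to 0.31, adjusted p = 8.61e-05, exact binomial test), 0.10 with TMM (adjusted p = 0.0709), -0.27 in the small table (713 and 522 counts, adjusted p = 0.00320) and -0.31 on TPM. The authors' effective length of Dnmt3a was far shorter in library 1, with short transcripts taking more of the RNA there. The 827-base coding fragment Dnmt3a-206, which shares every 50-base window with another transcript, had a TPM of 8.46 and 0.0 in libraries 1 and 2. The full-length Dnmt3a-201 had 3.84 and 8.81. The authors' intervals for TPM of each of these transcripts did not overlap between the libraries. Dnmt3a-218, which also encodes 908 codons, had 2.3 and 0.0, and its intervals overlapped. Of the 50-base windows of Dnmt3a-201, only 75 occur in no other Dnmt3a transcript. How reads were divided between Dnmt3a-201 and Dnmt3a-218 was not tested.

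Complete coding transcripts of Dnmt3a had a summed TPM of 6.85 and 9.81 in libraries 1 and 2, 19.9% and 35.5% of the gene. The long form of 908 codons took 6.14 and 8.81 of this. The short form of 689 codons, known as Dnmt3a2, begins at an internal start 84714 bases downstream and took 0.710 and 1.00. The long form was therefore the main complete coding form in both libraries. The leading transcript by TPM was the retained-intron Dnmt3a-202 at 8.89 and 10.73, while by expected counts it was Dnmt3a-201. The sequences before the long and the internal start are shown for their CpG content. They come from RefSeq (GRCm38.p6), plus strand, at chr12:3806730-3806979, the 250 bases before the start that lies 50 bases ahead of Dnmt3a-201, and at chr12:3891494-3891727, the first 234 of the 250 bases before Dnmt3a-203. Capitals mark each CG.
Long start: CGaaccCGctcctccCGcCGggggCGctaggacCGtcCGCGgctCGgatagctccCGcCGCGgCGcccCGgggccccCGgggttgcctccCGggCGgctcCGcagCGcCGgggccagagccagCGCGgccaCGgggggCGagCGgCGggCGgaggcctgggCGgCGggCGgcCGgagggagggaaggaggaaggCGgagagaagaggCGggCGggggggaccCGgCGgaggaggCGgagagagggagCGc
Internal start: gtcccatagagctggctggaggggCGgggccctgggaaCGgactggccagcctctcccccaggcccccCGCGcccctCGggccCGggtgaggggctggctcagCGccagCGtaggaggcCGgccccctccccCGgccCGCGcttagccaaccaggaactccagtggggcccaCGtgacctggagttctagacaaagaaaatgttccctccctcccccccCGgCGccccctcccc
The window at the long start held 38 CG, a number reached by 1.88% of RefSeq windows. That at the internal start held 15, a number reached by 27.3%.

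Dnmt3b, the other de novo enzyme, was low. It lies on the plus strand at chr2:153649450-153687730. Its TPM was 5.81 in library 1 and 8.3 in library 2 (mean 7.05 ± 1.76, percentile 29.2), from 244 and 282 expected counts. The log2 ratio was 0.48 (95% interval 0.23 to 0.73, adjusted p = 3.29e-04, exact binomial test), and it stayed above 0 with TMM (0.37) and in the small table (160 and 192 counts). Dnmt3a exceeded it by 5.91 times in library 1 and 3.33 times in library 2. Of its 10 complete coding transcripts, 4 lack 2 coding exons of 70 and 119 bases, or 63 codons, and forms without this stretch are known to lack catalytic activity. Forms with these exons summed to a TPM of 2.20 and 1.75, and forms without them to 1.04 and 3.16. The balance thus turned between the libraries, but every transcript involved at 10% or more of the gene shares all its 50-base windows with others, and the authors' intervals reach nearly 0. No order of these forms can be read from these files.

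**Figure D3:**
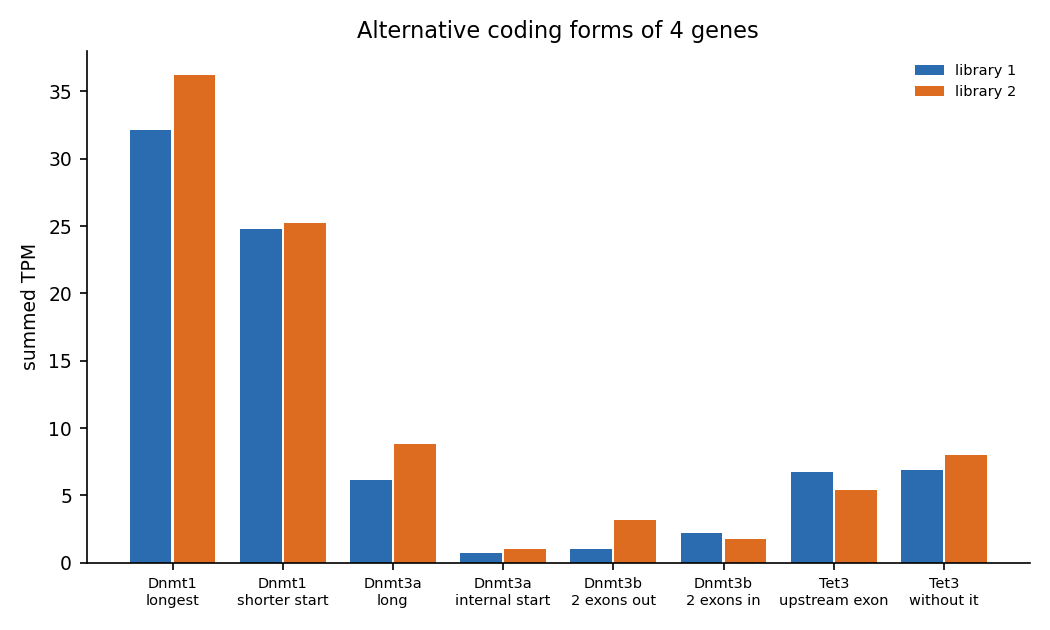
Summed TPM of alternative coding forms of Dnmt1, Dnmt3a, Dnmt3b and Tet3 in library 1 (blue) and library 2 (orange). The bars are single values with no error, and only the Dnmt3b pair has its higher bar in the group without the 2 exons in library 2 (3.16) and in the group with them in library 1 (2.20).

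Of the oxidising enzymes, Tet3 and Tet2 made up nearly all of the RNA. Tet3 took 57.0% of the summed TPM of the 3 genes in library 1 and 49.2% in library 2, Tet2 took 38.4% and 44.3%, and Tet1 took 4.63% and 6.49%. Their iron-binding centre uses a histidine and an aspartate separated by 1 residue. The coding stretch around these 3 codons, in capitals, is shown because it is the centre that the 3 enzymes share. The stretches lie on the minus strand, at chr10:62814439-62814501 (exon 11 of 13 of Tet1-206, codons 1652 to 1654 of 2039), chr3:133471343-133471405 (exon 9 of 11 of Tet2-201, codons 1295 to 1297 of 1912) and chr6:83373197-83373259 (exon 9 of 11 of Tet3-202, codons 950 to 952 of 1668).
Tet1: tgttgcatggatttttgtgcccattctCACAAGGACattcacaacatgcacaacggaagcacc
Tet2: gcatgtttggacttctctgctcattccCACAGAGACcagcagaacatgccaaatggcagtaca
Tet3: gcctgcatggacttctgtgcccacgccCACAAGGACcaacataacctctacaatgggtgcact
Over these 63 bases Tet1 and Tet3 were identical at 44 positions (69.8%), Tet2 and Tet3 at 43 (68.3%) and Tet1 and Tet2 at 41 (65.1%). Transcripts were again searched for the capitals with a few bases on each side only. Those that carry this core took 63.4% of Tet1 TPM in library 1 and 50.6% in library 2. They took 35.5% and 31.9% of Tet2 TPM, and 36.5% and 37.5% of Tet3 TPM. As shares of expected counts these were 89.1% and 82.2% for Tet1, 84.9% and 84.6% for Tet2, and 69.7% and 72.6% for Tet3. The transcripts with the core include incomplete ones, such as the 399-codon fragment Tet1-205 at 35.0% and 30.9% of Tet1 TPM.

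Tet3 lies on the minus strand at chr6:83362373-83459084. Its TPM was 37.24 in library 1 and 35.66 in library 2 (mean 36.5 ± 1.12, percentile 63.2), from 2716 and 2216 expected counts. The log2 ratio was -0.02 (95% interval -0.10 to 0.06, adjusted p = 0.651, exact binomial test). With TMM it was -0.13 (adjusted p = 0.00253). The leading transcript by TPM was the noncoding processed transcript Tet3-201, at 17.68 and 15.57. The 2 complete coding transcripts were Tet3-202, at 6.85 and 8.00, and Tet3-203, at 6.74 and 5.37. Tet3-203 encodes 135 codons more, 1803 against 1668, and is the form with upstream coding sequence, where the CXXC DNA-binding domain of Tet3 is encoded. Of the 50-base windows, 832 in Tet3-203 and 5669 in Tet3-202 occur in no other Tet3 transcript. At its downstream end Tet3-202 is annotated to chr6:83362373 and Tet3-203 only to chr6:83368042. Windows in that longer end do not bear on the upstream coding sequence. How well reads separate the 2 coding forms was not tested. The authors' intervals did not overlap between libraries for Tet3-202 (5.87 to 6.68 and 6.72 to 7.64).

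Tet2, an enzyme often lost in T cell lymphoma, lies on the minus strand at chr3:133463679-133545139. Its TPM was 25.11 in library 1 and 32.17 in library 2 (mean 28.6 ± 4.99, percentile 56.8), from 1462 and 1466 expected counts. The log2 ratio was 0.28 (95% interval 0.17 to 0.38, adjusted p = 8.36e-07, exact binomial test), 0.17 with TMM (adjusted p = 0.00317) and 0.41 in the small table (841 and 983 counts). It was thus higher in library 2 under each of these scalings. By TPM its leading transcript was Tet2-205, a fragment of 423 bases, with 9.42 and 13.87. By expected counts the fragment took 58.5 and 70.4 counts, against 1038 and 1185 for the full-length Tet2-201. Tet2-201 had a TPM of 6.85 and 9.57.

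Tet1 was the lowest of the 9 genes. It lies on the minus strand at chr10:62804570-62908996. Its TPM was 3.03 in library 1 and 4.71 in library 2 (mean 3.87 ± 1.19, percentile 19.3), from 246 and 247 expected counts. The log2 ratio of 0.28 had a 95% interval of 0.02 to 0.54 (adjusted p = 0.0479, exact binomial test) and was not called with TMM (0.17, adjusted p = 0.253) or in the small table (0.23, adjusted p = 0.255). Most of its TPM lay in the processed transcript Tet1-202 (1.11 and 2.20) and the coding fragment Tet1-205 (1.06 and 1.45). The 2 complete coding transcripts summed to 0.860 and 0.930 in TPM, but took 80.9% and 73.1% of the expected counts of the gene.

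**Figure D4:**
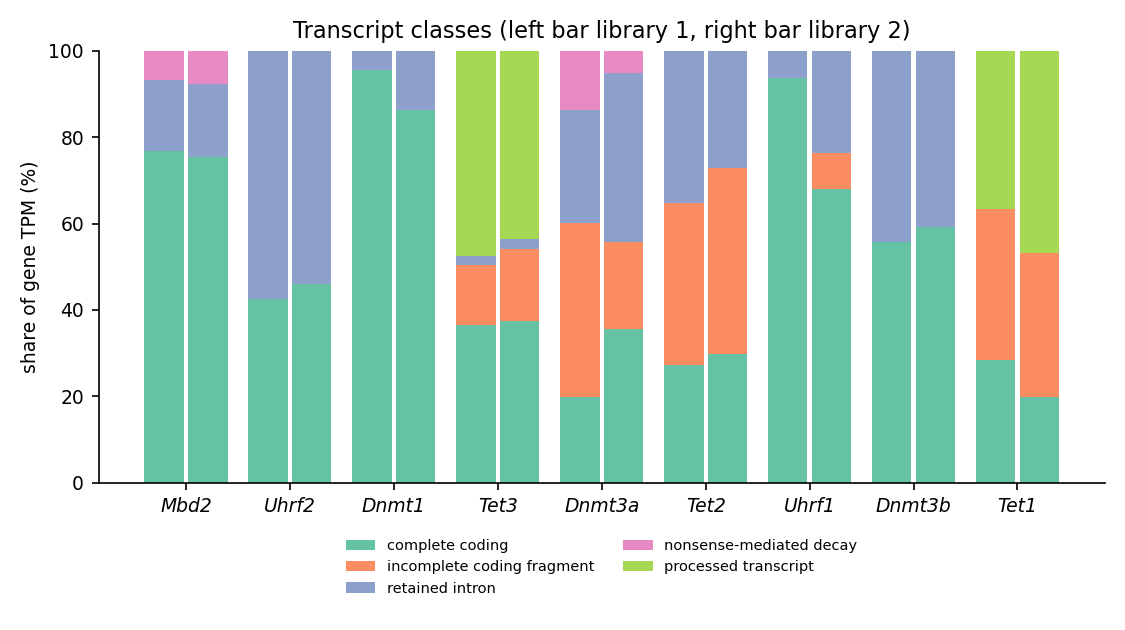
Share of each gene's TPM (%) in 5 transcript classes, with the left bar for library 1 and the right bar for library 2. Complete coding transcripts range from 95.6% (Dnmt1) to 19.9% (Dnmt3a) in library 1 and from 86.2% (Dnmt1) to 19.8% (Tet1) in library 2.

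Retained-intron transcripts took 21.2% of the TPM of the 9 genes in library 1 and 23.0% in library 2, against 11.5% and 12.0% over all protein-coding genes. As shares of expected counts the gap was smaller, at 9.57% and 10.4% against 8.09% and 8.57%. Most of that RNA lay in Uhrf2 and Mbd2, with summed retained-intron TPM of 41.6 and 45.0 for Uhrf2 and 46.8 and 49.1 for Mbd2. Of the 22 retained-intron transcripts of the 9 genes that differed between the libraries, 16 (72.7%) were higher in library 2, against 61.2% over all genes. When only complete coding transcripts were summed, the level of Tet1 fell from a mean of 3.87 to 0.895, that of Dnmt3a from 31.0 to 8.33 and that of Tet2 from 28.6 to 8.21. In proportion Dnmt1 changed least of the 9, from 65.4 to 59.1. The alternative was chosen after the data had been seen.

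Mbd2, the methyl-CpG reader among the 9 genes, was the most abundant. It lies on the plus strand at chr18:70568189-70626131. Its TPM was 284.48 in library 1 and 291.33 in library 2 (mean 288 ± 4.84, percentile 96.2), from 7444 and 6159 expected counts. The log2 ratio was 0.00 (95% interval -0.05 to 0.05, adjusted p = 0.952, exact binomial test), -0.11 with TMM (adjusted p = 1.82e-05), -0.15 with DESeq2 size factors (adjusted p = 1.16e-08) and 0.09 in the small table (adjusted p = 0.0704). The large table was thus at or below 0 under each of these scalings, and the small table was above it. The transcript Mbd2-201, which encodes 414 codons, took 217.62 and 218.04, and the 494-base retained-intron transcript Mbd2-204 took 46.3 and 46.84. As shares of the gene these were 76.5% and 74.8% for Mbd2-201 and 16.3% and 16.1% for Mbd2-204.

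**Figure D5:**
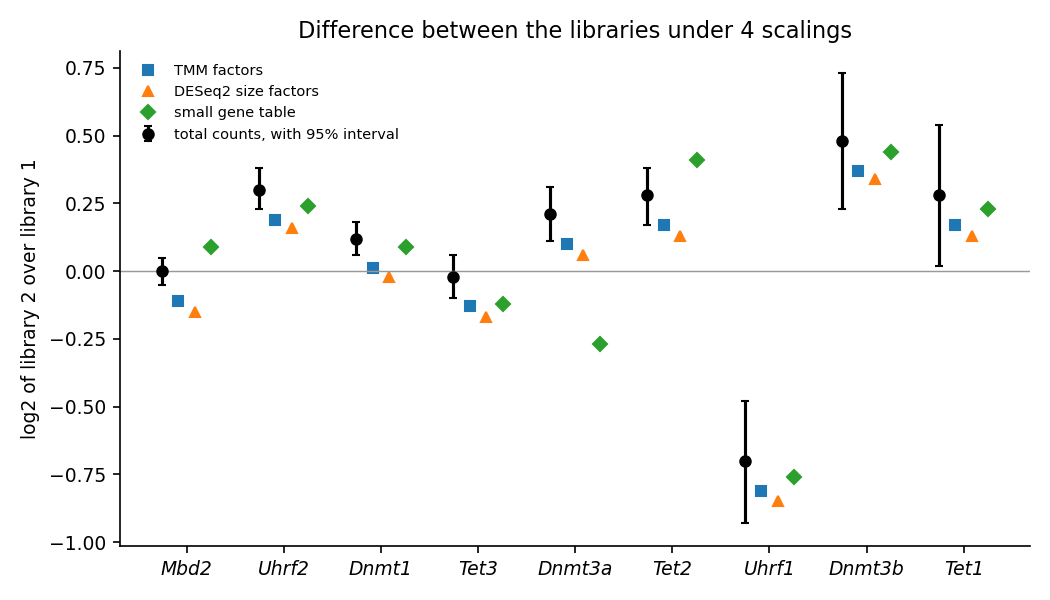
Log2 ratio of library 2 over library 1 for each gene, scaled by total counts (black, with the 95% exact binomial interval), by TMM, by DESeq2 size factors and in the small gene table. Uhrf1 lies between -0.70 and -0.85 in all 4, Uhrf2, Dnmt3b, Tet1 and Tet2 lie above 0 in all 4, and Dnmt1, Dnmt3a and Mbd2 lie on both sides of 0.

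The partners of Mbd2 in NuRD were all detected, 12 of 12. Among them 8 were called higher in library 1 (23.9% of all genes tested), 2 higher in library 2 (46.4%) and 2 were not called, with a median log2 ratio of -0.15. Over all genes with at least 100 counts, which each of the 12 had, the shares were 34.5% and 37.4%. Of the 11 tested in the small table, 2 were called higher in library 1 (22.1% of all genes tested there) and 1 higher in library 2 (32.2%), so most of these calls depended on the counting. The histone chaperone Rbbp4 had a TPM of 287.77 and 236.32 in libraries 1 and 2, the deacetylase Hdac1 249.53 and 241.94, and the scaffold subunit Mta2 229.93 and 225.48. Mbd2 lay above each of them in library 2, and above Hdac1 and Mta2 but not Rbbp4 in library 1. Of the paralogs Gatad2a and Gatad2b, which can each pair with Mbd2, Gatad2a stood at 105.27 and 115.91 and was named after its values were seen. Gatad2b was lower at 9.08 and 6.2, and its log2 ratio was -0.96 (adjusted p = 2.37e-25 by the exact binomial test).

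Of the other methyl-CpG readers, 8 of 9 were detected, 5 were called higher in library 1 (23.9% of all genes tested), 3 higher in library 2 (46.4%) and 1 was not called (median log2 ratio -0.37). Mbd3, a NuRD subunit that binds methylated DNA poorly, had a TPM of 133.07 and 155.72 in libraries 1 and 2. Mbd1 had 61.99 and 50.43 (log2 ratio -0.37, adjusted p = 6.87e-18, exact binomial test). Mbd2 exceeded each of them in both libraries. Mbd4, a glycosylase that removes thymine at deaminated CpG, was higher in library 2, with 350 and 591 counts and a log2 ratio of 1.03 (adjusted p = 1.02e-25).

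The partners and regulators of the methyltransferases were split. Of 16 tested, 8 were called higher in library 1 (23.9% of all genes tested), 5 higher in library 2 (46.4%) and 3 were not called (median log2 ratio -0.01). Hdac1 and the chromatin remodeller Atrx, at 151.99 and 148.76 TPM, were among the most abundant. Pcna, the replication clamp that binds Dnmt1, stood at 144.02 and 147.47 (log2 ratio 0.04, adjusted p = 0.426). The replication ligase Lig1, a binding partner of Uhrf1, was lower in library 2, as Uhrf1 was, with 1144 and 417 counts (log2 ratio -1.18, adjusted p = 8.97e-50, exact binomial test). Setdb1 was lower there too, with 2881 and 1434 counts (log2 ratio -0.73). Dmap1 went the other way, with 607 and 845 counts (log2 ratio 0.75, adjusted p = 1.09e-21, exact binomial test). Dnmt3l, the cofactor of Dnmt3a in germ cells, had 2 and 19 counts, and Dppa3, which expels Uhrf1 from chromatin in oocytes, had 1 and 0.

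Of the genes around the Tet enzymes, 10 were tested, 3 were called higher in library 1 (23.9% of all genes tested), 5 higher in library 2 (46.4%) and 2 were not called (median log2 ratio -0.03). Ogt, the sugar transferase that binds Tet2 and Tet3, was the most abundant at 186.11 and 198.59 TPM. The mitochondrial isocitrate dehydrogenase Idh2, which makes the 2-oxoglutarate that Tet enzymes use, had 59.59 and 69.21. D2hgdh, which clears the inhibitory metabolite D-2-hydroxyglutarate, rose from 733 to 1134 counts (log2 ratio 0.90, adjusted p = 4.19e-39, exact binomial test). Slc23a2, a vitamin C transporter, stood at 31.0 and 20.99. Wt1 and Cxxc4, which can recruit Tet2, had 0 counts in library 1 and 20 and 15 in library 2. In library 1 a count of 0 allows up to 3 counts, or a CPM of 0.113. In the small table Wt1 had 0 and 8 counts in libraries 1 and 2, and Cxxc4 had 0 in both.

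The base excision and deamination genes act after oxidation. Of 17 tested, 8 were called higher in library 1 (23.9% of all genes tested), 5 higher in library 2 (46.4%) and 4 were not called (median log2 ratio -0.13). The cytidine deaminase gene Apobec3 led at 311.89 and 286.76 TPM, followed by the strand-break sensor Parp1 at 82.58 and 52.23 (log2 ratio -0.72, adjusted p = 4.45e-87, exact binomial test) and the scaffold Xrcc1 at 56.11 and 49.54. Among the genes that supply the methyl donor S-adenosylmethionine, 7 of 15 tested were called higher in library 1 (23.9% of all genes tested), 5 higher in library 2 (46.4%) and 3 were not called (median log2 ratio -0.06). The synthetase Mat2a stood at 368.32 and 409.11 TPM and its regulatory subunit Mat2b at 198.76 and 192.74.

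Genes that are known to lose methylation in regulatory T cells were all detected, 6 of 6. Of these, 4 were called higher in library 1 (23.9% of all genes tested), 1 higher in library 2 (46.4%) and 1 was not called, with a median log2 ratio of -0.17. The small table called 2 of the 6 higher in library 1 (22.1% of all genes tested there) and 1 higher in library 2 (32.2%). Ikzf2 had a TPM of 214.31 and 184.82 in libraries 1 and 2, Ctla4 had 84.06 and 66.55, and Tnfrsf18 had 344.14 and 369.22. Foxp3 had 3792 and 2971 expected counts (log2 ratio -0.08, adjusted p = 0.0329, exact binomial test, and -0.19 with TMM). Methylation itself was not measured in these libraries.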

How the data were processed

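The authors deposited, for each library, gene and transcript tables on mm10 with GENCODE M21 and a small gene table on GENCODE M4, per the deposited description. Expected counts are the authors' estimates that share reads mapping to several features, per the file headers. TPM and FPKM were scaled by the authors with effective lengths, per the file headers, and the interval bounds of TPM are the authors' too. Transcript percent values are the authors', per the file headers, and shares printed here were recomputed from TPM or counts. The small table holds whole-number counts deposited by the authors. The sources used here name no aligner, quantifier or strand setting. All 9 symbols were matched through GENCODE M21.

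Rounded expected counts were compared by a 2-sided exact binomial test against the library totals, with Benjamini-Hochberg adjustment over genes with at least 10 summed counts. Ratios used 0.5 added counts. The test and its 95% intervals (Clopper-Pearson) cover counting error only, since PCR copies are not independent molecules. With no residual degrees of freedom, edgeR 4.0.16 and DESeq2 1.42.0 (R 4.3.3) gave only scaling factors, and Python 3.11.15 with scipy 1.17.1 ran the test. Counts for 55536 genes were simulated with Poisson counting error alone. The changed genes were drawn from those with at least 100 summed counts. The test recovered 80 of 100 genes changed 1.5-fold and 95 of 100 changed 2-fold. That setting does not cover differences between libraries beyond counting error. Complete coding transcripts are protein-coding transcripts with an annotated start and stop. Effective lengths were 49 bases under transcript length, so windows of 50 bases were used. Where 0 counts were seen, the limit was set at 3 counts, or 0.113 CPM for library 1 and 0.136 CPM for library 2.

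The 9 genes, 8 lists of related genes and 8 marker lists were chosen with earlier results of these data known. The text names the 9 genes, the 3 most abundant of each list, up to 3 under a TPM of 1, and up to 3 with the largest called ratio among genes with at least 100 counts. Of marker lists it names the 2 most abundant. C1qc, Gatad2a, Top2a and E2f1 were named after their values were seen. A few genes that meet the rule are left unreported here. Alternatives were TMM, DESeq2 size factors, a total over protein-coding genes outside the erythroid list, other count minimums, other added counts, FPKM, the other gene table, and 1 library at a time. Genes of similar pattern were not sought, since each gene has 1 difference.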

Additional observations from a re-analysis of the deposited data

How the results depend on the processing

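With a minimum TPM of 5, 8 of the 9 genes were detected, all but Tet1. Of the 9 levels, 8 moved by more than 1 SD when only complete coding transcripts were summed. The genes called higher in library 1 numbered 1 with library totals, 3 with TMM, 3 with DESeq2 size factors and 2 in the small table. Those called higher in library 2 numbered 6 with library totals, 3 with TMM, 3 with DESeq2 size factors, 4 in the small table and 0 at 1.5-fold or more. Dnmt1 turned to a log2 ratio of -0.02 with DESeq2 size factors (adjusted p = 0.464, exact binomial test). Dnmt3a turned to -0.27 in the small table, -0.31 on TPM and -0.32 on FPKM, each with 1 added for the last 2. The cause was not tested. Uhrf1, Uhrf2, Dnmt3b and Tet2 kept their direction and their call under TMM, DESeq2 size factors, the protein-coding total and the small table. Overlapping genes held at most 54 counts in a library (5430434F05Rik, in Tet3). No paired analysis was possible because both libraries belong to 1 group.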

Other observations

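Germline genes are a known class that DNA methylation keeps silent in somatic cells, and 12 of them were listed after the data had been seen. None of the 12 reached a TPM of 1 in both libraries, and 11 of the 12 were under 1 in both. They summed to a TPM of 2.16 and 3.79 in libraries 1 and 2. In library 1, 6 of the 12 had 0 counts, and in library 2, 1 of the 12 (Sycp3, a part of the meiotic chromosome axis) had 0. Over all genes, too, more reached a TPM of 1 in library 2 (19186) than in library 1 (15359). A gain at low levels in library 2 was thus not particular to this class. Dazl, an RNA-binding protein of germ cells, had 1 count in library 1 and 25 in library 2, a TPM of 0.15 and 1.16. The testis tubulin Tuba3a was the highest by mean level, with 22 and 10 counts and a TPM of 0.9 and 0.5. The germ cell helicase Ddx4 had 0 counts and 1 count. The small table differed for some of these genes, with 0 and 18 counts for Ddx4 (adjusted p = 5.83e-06, exact binomial test), 7 and 5 for Sycp3, and 1 and 2 for Dazl. A count of 0 allows up to 3 counts, so levels under that floor were not detectable at this depth. Methylation of these genes was not measured.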
